A study of Homo sapiens with 12 samples.

Results

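The messenger RNA of BXPC3 and PANC1, established human cell lines from pancreatic cancer, was compared between GelMA and collagen hydrogels to find the changes that both lines shared. All 8 GelMA libraries were set against all 4 collagen libraries, with cell line as a covariate, which took in all 12 libraries of the series. Each line had 2 libraries in collagen, 2 in 5% GelMA and 2 in 7.5% GelMA, so the 6 groups were BXPC3 in collagen, BXPC3 in 5% GelMA, BXPC3 in 7.5% GelMA, and the same 3 matrices for PANC1. The labels name no other treatment, and all cells were grown in high-glucose medium with serum. For the collagen concentration, the time in the gels and the oxygen supply, the labels give nothing. The labels do not say whether the 2 libraries of a group came from separate cultures, so a p-value here reflects library-to-library spread alone, and that spread may be technical.

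GelMA is gelatin, the denatured form of collagen, modified with methacryloyl groups so that light can cross-link it into a gel, and it keeps sites to which integrins bind. Cells buried in any gel receive oxygen by diffusion. At low oxygen the prolyl hydroxylases EGLN1 to EGLN3 stop marking the alpha subunits of hypoxia-inducible factor (HIF) for destruction by VHL, and HIF raises genes for glycolysis, pH control, vessel growth and its own hydroxylases. Sterol shortage works through SREBP factors, which raise nearly every enzyme of cholesterol synthesis.

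Of 16299 genes in the table, 13005 reached 1 RPKM (reads per kilobase and per depth of the library, a level corrected for length and depth) in at least 2 libraries of each line and were tested. The 2 libraries of one group correlated at 0.9939 to 0.9966 over these genes, and the SD of their log2 difference was 0.170 to 0.230. The libraries matched their line labels. SMAD4, which is deleted in BXPC3, lay at log2 RPKM of -5.92 to -5.35 in BXPC3 and 3.94 to 4.55 in PANC1, VIM at 5.01 to 5.78 against 11.65 to 11.93, and KRT19, a ductal keratin, at 11.73 to 11.83 against 9.72 to 10.57. No read counts were used, so library depth is unknown. In bulk RNA, fewer cells that express a gene and less of its RNA per cell cannot be told apart.

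Both lines changed many genes in the same direction. With limma and a Benjamini-Hochberg adjusted p under 0.05, 1470 genes were higher in GelMA in each line (11.3% of those tested) and 1310 were lower in each line (10.1%). These 2780 concordant genes, 21.4% of those tested, made up 73.4% of the 3786 genes called in both lines, and 1006 genes (7.74%) were called in opposite directions. The within-line comparisons share no library. They called 5535 genes in BXPC3 (42.6%) and 7906 in PANC1 (60.8%), so the concordant genes were 50.2% of the BXPC3 calls and 35.2% of the PANC1 calls. With line as a covariate, 5197 genes were called (40%), 2756 higher (21.2%) and 2441 lower (18.8%), and that fit also called 1450 of the 1470 concordant higher genes and 1282 of the 1310 concordant lower genes.

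Most shared changes were small. The median effect of the concordant higher genes was 0.30 on the log2 scale in BXPC3 and 0.37 in PANC1, and that of the concordant lower genes -0.33 and -0.46, beside medians of 0.02 and -0.00 over all genes tested. The effect was the larger one in PANC1 for 908 of the higher genes (61.8%) and 890 of the lower genes (67.9%). The difference between the lines was itself called for 449 higher (30.5%) and 477 lower genes (36.4%), against 43.9% of all genes tested. Changes of at least 2-fold in both lines were found for 32 higher genes (0.246%) and 48 lower genes (0.369%). Of the 87 genes called and changed at least 2-fold in both lines, 80 (92%) had the same sign.

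**Figure D1:**
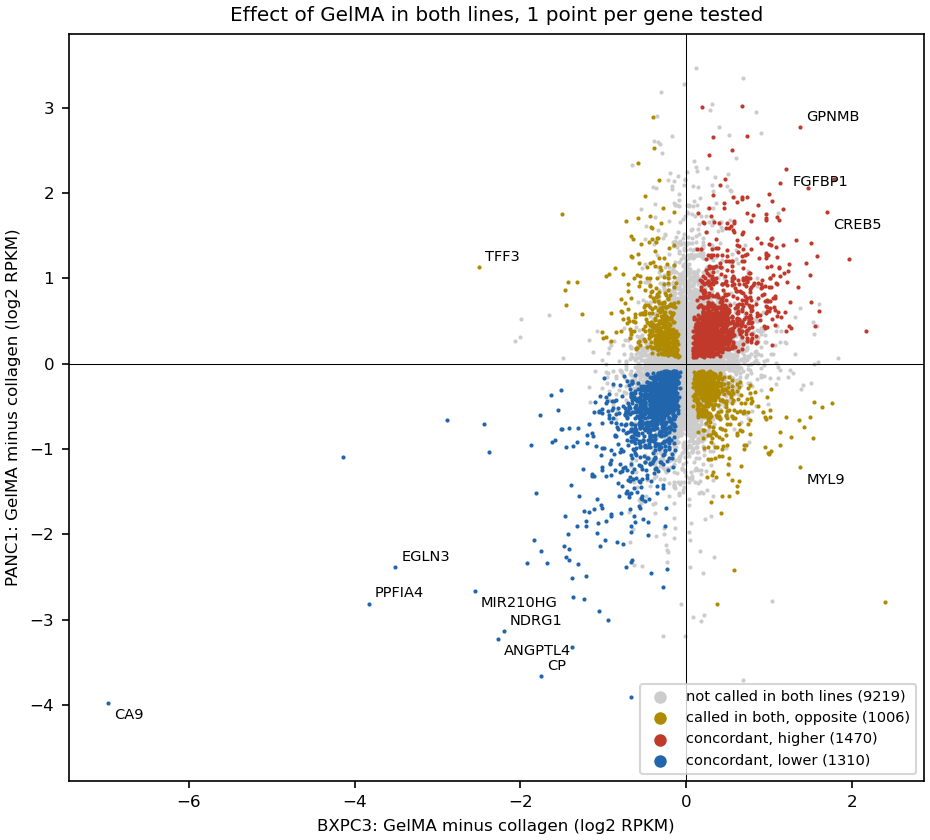
GelMA minus collagen in BXPC3 (horizontal axis, log2 RPKM) against the same in PANC1 (vertical axis, log2 RPKM), 1 point per gene tested; red and blue points are the 1470 higher and 1310 lower concordant genes, ochre points the 1006 genes called in opposite directions. The lower left corner holds CA9, PPFIA4, EGLN3, MIR210HG, ANGPTL4, NDRG1 and CP, farther from the origin than the concordant higher genes reach in the opposite corner.

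Ranked by the smaller of the effects in the 2 lines, counting only genes that averaged 3 RPKM or more in some group of each line, the first 12 concordant lower genes were CA9, PPFIA4, MIR210HG, EGLN3, ANGPTL4, NDRG1, PGF, RPL17P50, ENO2, CP, PPP1R3G and PFKFB3. In all 12 the 4 GelMA libraries of each line lay below the 2 collagen libraries of that line, with no overlap. The ranking used these same libraries, so the separation describes the chosen genes and is no independent result.

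CA9 (ENSG00000107159, chr9:35673856-35681159, GRCh38), the cell-surface carbonic anhydrase that helps hypoxic cells export acid, showed the largest decrease. In BXPC3 its log2 RPKM was 4.28 and 5.67 in collagen, -2.43 and -1.61 in 5% GelMA and -1.65 and -2.32 in 7.5% GelMA. In PANC1 it was 2.18 and 2.31 in collagen, 0.75 and 0.64 in 5% GelMA and -4.55 and -3.74 in 7.5% GelMA. It thus fell below 1 RPKM in every BXPC3 GelMA library, but in PANC1 only in the 7.5% gels. The effect was -6.98 ± 0.40 (SE) in BXPC3 (adjusted p = 2.51e-06) and -3.97 ± 0.40 in PANC1 (adjusted p = 1.18e-05), on n = 4 GelMA and 2 collagen libraries of each line, limma. Values below 1 RPKM stretch a log2 difference: on the log2(RPKM + 1) scale the smaller of the effects was -1.79 (adjusted p = 0.00017).

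PPFIA4, which encodes a liprin scaffold protein (chr1:203026498-203078740), stood at 2.85 and 3.73 in BXPC3 collagen and at -0.73 to -0.39 in the 4 BXPC3 GelMA libraries. In PANC1 it stood at 4.92 and 5.05 in collagen, 3.43 and 3.49 in 5% GelMA and 1.09 and 0.67 in 7.5% GelMA. Its effects were -3.83 ± 0.22 and -2.81 ± 0.22 (adjusted p = 2.41e-06 and 1.63e-06). MIR210HG (chr11:565660-568457), the host transcript of a hypoxia-induced microRNA, fell by 2.55 ± 0.15 in BXPC3 and by 2.66 ± 0.15 in PANC1 (adjusted p = 2.45e-06 and 1.28e-07). MIR210HG averaged a log2 RPKM of 5.35 in BXPC3 collagen, 2.76 in 5% GelMA and 2.84 in 7.5% GelMA. In PANC1 it averaged 5.70, 4.44 and 1.64. With the GelMA concentrations averaged, the difference between the lines was not called for MIR210HG (-0.11 ± 0.21, adjusted p = 0.7), whereas it was for PPFIA4 (1.02 ± 0.31, adjusted p = 0.0204). PPFIA4 was below 1 RPKM in all 4 BXPC3 GelMA libraries, which stretches that difference.

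EGLN3 (chr14:33924231-34462774), the HIF prolyl hydroxylase that HIF itself induces, had log2 RPKM of 7.72 and 8.76 in BXPC3 collagen and 4.42, 4.59, 5.16 and 4.77 in BXPC3 GelMA. In PANC1 the values were 4.26 and 4.10 in collagen and 1.90, 1.61, 1.76 and 1.93 in GelMA. The gene fell by 3.51 ± 0.23 in BXPC3 (adjusted p = 4.39e-06) and by 2.38 ± 0.23 in PANC1 (adjusted p = 7.86e-06), and its PANC1 libraries at the 2 GelMA concentrations overlapped.

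ANGPTL4 (chr19:8363289-8374373), a secreted inhibitor of lipoprotein lipase, was at 4.76 and 5.42 in BXPC3 collagen and at 2.73 to 2.92 in BXPC3 GelMA. In PANC1 it was at 8.95 and 8.82 in collagen, 6.77 and 6.74 in 5% GelMA and 4.48 and 4.66 in 7.5% GelMA. It fell by 2.27 ± 0.14 and by 3.22 ± 0.14 (adjusted p = 2.75e-06 and 2.52e-08). NDRG1, a differentiation-related stress protein, fell by 2.20 and by 3.13, and PGF, a ligand of a VEGF receptor, by 1.92 and by 2.34. CP, ceruloplasmin, the copper-carrying ferroxidase, fell by 1.75 ± 0.20 in BXPC3 and by 3.66 ± 0.20 in PANC1, with a called difference between the lines (-1.91 ± 0.28, adjusted p = 0.000335).

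RPL17P50 (chr10:73005833-73006595), listed as a processed pseudogene of a ribosomal protein, fell by 1.84 ± 0.23 and by 2.06 ± 0.23. It lies on the same strand as P4HA1 and 621 bases beyond its annotated end, and P4HA1 fell by 1.41 and by 2.17. Pseudogene reads can belong to near-identical copies or, with the strand setting and annotation not given, to a neighbour, so the value of RPL17P50 is uncertain. The part of P4HA1 in it was not tested.

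**Figure D2:**
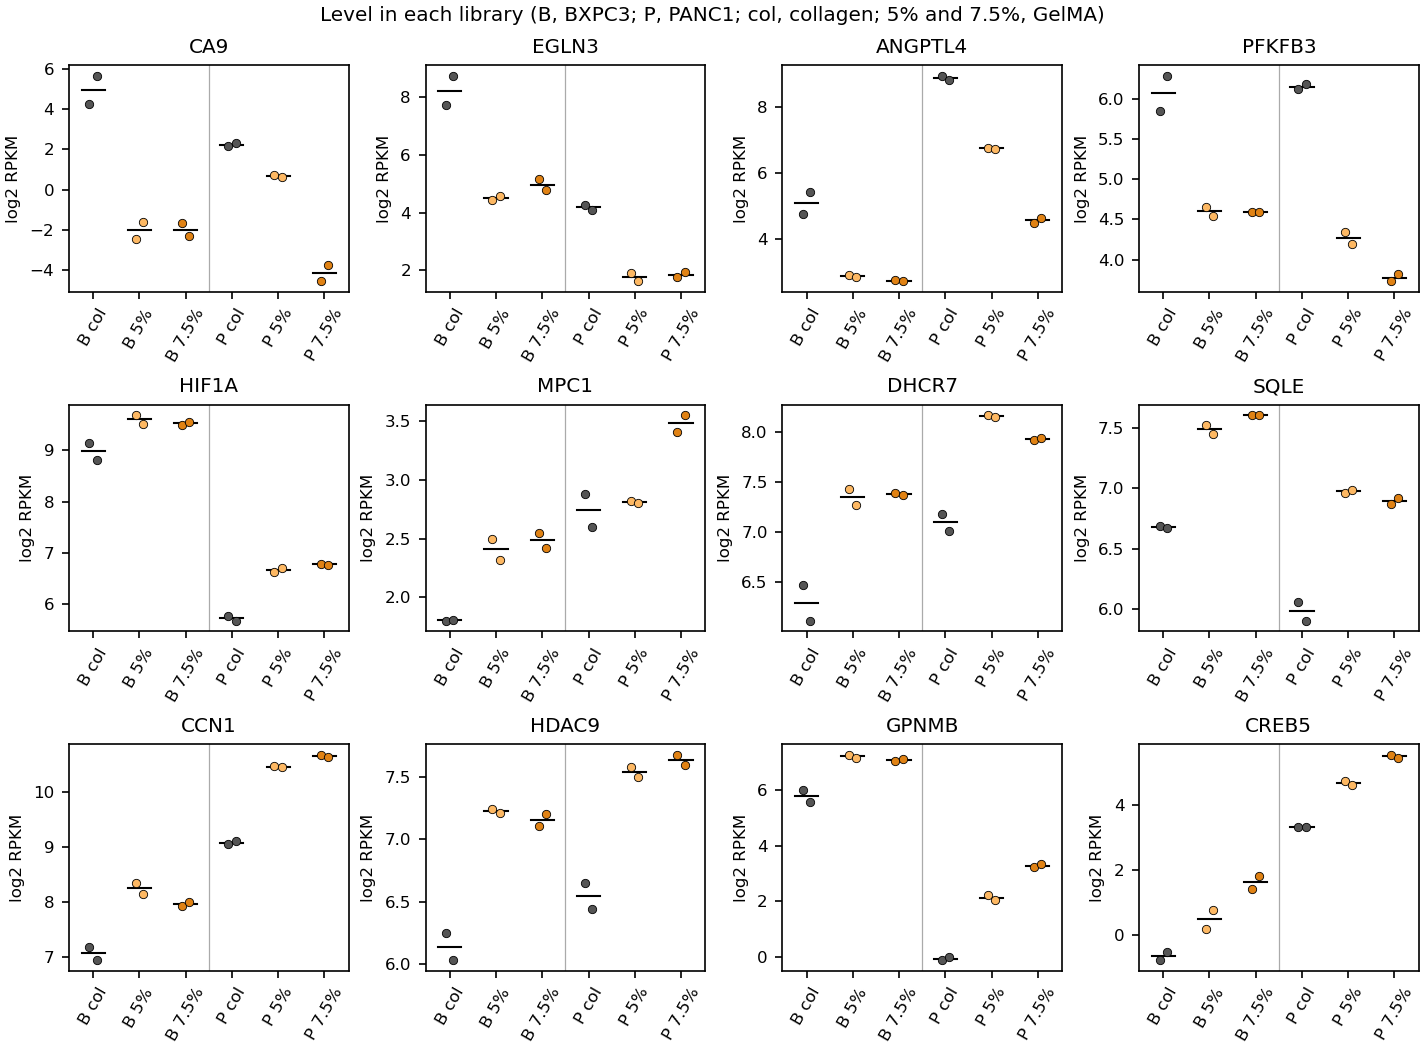
Level in each library (vertical axis, log2 RPKM) of 12 genes, BXPC3 (B) left and PANC1 (P) right of the grey line; points are single libraries and bars group means. CA9 and ANGPTL4 step down again from 5% to 7.5% GelMA in PANC1, while EGLN3 sits between 1.61 and 1.93 in all 4 PANC1 GelMA libraries; HIF1A, DHCR7, SQLE, CCN1 and HDAC9 are higher in GelMA in both lines.

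The promoters of these genes are shown because the hypoxia response element, the short motif that HIF binds, has the core ACGTG or GCGTG. The 250 bases before the start were read from RefSeq (GRCh38.p14) on both strands, where the reverse of the core reads CACGT or CACGC, and neighbouring matches may overlap. Of the genes tested, 7019 were matched to a promoter, among them 7 of the 12 genes above, and 6 of those 7 held the core. The window of EGLN3 did not hold it. Capitals mark the matches in CA9 (chr9:35673678-35673927, plus strand), PPFIA4 (chr1:203026241-203026490, plus), MIR210HG (chr11:568458-568707, minus) and ENO2 (chr12:6914330-6914579, plus), each read in the direction of transcription.

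CA9: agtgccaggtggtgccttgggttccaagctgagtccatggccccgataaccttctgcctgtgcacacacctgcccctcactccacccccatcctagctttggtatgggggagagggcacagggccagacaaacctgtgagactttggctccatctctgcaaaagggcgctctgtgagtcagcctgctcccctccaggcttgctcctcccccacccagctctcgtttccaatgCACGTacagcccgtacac

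PPFIA4: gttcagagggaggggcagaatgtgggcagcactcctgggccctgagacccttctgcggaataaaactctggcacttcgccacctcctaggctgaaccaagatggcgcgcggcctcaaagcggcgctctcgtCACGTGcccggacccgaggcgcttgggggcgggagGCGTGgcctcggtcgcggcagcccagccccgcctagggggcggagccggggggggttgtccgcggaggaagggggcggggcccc

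MIR210HG: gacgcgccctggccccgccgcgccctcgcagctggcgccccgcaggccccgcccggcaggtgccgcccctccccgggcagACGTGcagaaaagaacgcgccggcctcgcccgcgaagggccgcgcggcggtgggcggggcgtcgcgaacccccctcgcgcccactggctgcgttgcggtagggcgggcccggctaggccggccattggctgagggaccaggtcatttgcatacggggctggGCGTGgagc

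ENO2: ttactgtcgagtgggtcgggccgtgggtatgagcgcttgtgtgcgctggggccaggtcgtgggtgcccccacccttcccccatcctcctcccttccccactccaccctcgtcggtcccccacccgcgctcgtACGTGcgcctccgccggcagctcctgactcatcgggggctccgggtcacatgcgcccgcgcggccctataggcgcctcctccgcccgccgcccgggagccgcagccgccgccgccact

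The core is common in windows of this length. It was found in 59.9% of all 7019 promoters, in 59.4% of the 677 concordant lower and 61.4% of the 841 concordant higher promoters, and in 18 of 26 (69.2%) for genes lower by at least 2-fold in both lines. Of 10 promoters of concordant members of the HIF target list, 9 held it, and these promoters were also richer in G and C (median 71.6% against 65.6% of bases). The core was also in 6 of 8 promoters (75%) of concordant cholesterol genes, which were higher in GelMA. A match describes letters only and shows no binding.

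The HIF target list, written from textbook knowledge for survival, pH and vessel genes, had 26 tested members. In both lines 21 were lower and 0 higher, beside 10.1% of all genes concordant lower, and the list's median effect was -0.75 in BXPC3 and -1.61 in PANC1. Besides the genes above, AK4, a mitochondrial adenylate kinase, fell by 1.38 and by 3.32, DDIT4, an inhibitor of mTORC1, by 1.21 and by 2.49, MXI1, a MYC antagonist, by 1.23 and by 1.72, and BNIP3L, a mitophagy receptor, by 1.07 and by 1.98. VEGFA, the main vessel growth factor, was lower in both lines but by very different amounts: its log2 RPKM went from 9.41 and 9.30 in collagen to between 9.07 and 9.17 in BXPC3 GelMA, and from 9.13 and 9.36 to between 6.61 and 7.09 in PANC1 GelMA (effects -0.23 and -2.40, line difference adjusted p = 6.05e-08). Without BXPC3 collagen replicate 1 the BXPC3 effect of VEGFA did not pass (-0.17, adjusted p = 0.0812). Some members were not shared. BHLHE40, a circadian repressor, was called in opposite directions (0.14 and -0.62), and CA12, ADM and RAB20 passed the test in 1 line each.

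Among the 12 tested oxygen sensors and HIF subunits, 2 hydroxylases, EGLN1 and EGLN3, fell while the alpha subunits HIF1A and EPAS1 rose. HIF1A, a subunit degraded in oxygen, had log2 RPKM of 9.15 and 8.82 in BXPC3 collagen against 9.69, 9.52, 9.49 and 9.56 in GelMA. In PANC1 it had 5.77 and 5.67 in collagen against 6.62, 6.71, 6.78 and 6.77 in GelMA. The GelMA libraries lay above the collagen libraries in both lines, and the effects were 0.58 ± 0.08 (adjusted p = 0.000272) and 1.00 ± 0.08 (adjusted p = 1.86e-06). These are mRNA levels, and HIF1A is controlled mainly through its protein. EPAS1, another alpha subunit, was higher by 0.17 and 0.34. EGLN1, the main HIF hydroxylase, fell by 0.71 and by 1.24, and SIAH2, a ligase that targets hydroxylases, by 0.28 and by 1.46. VHL (-0.18 and -0.29) and ARNT (-0.14 and -0.16) were lower by small amounts. Among all genes 10.1% were concordant lower and 11.3% higher. The count of 5 lower and 2 higher depends on 1 library: without BXPC3 collagen replicate 2 it was 2 lower (EGLN1 and EGLN3) and 1 higher (HIF1A), and the smaller effects of EPAS1, SIAH2, VHL and ARNT were then 0.12, -0.15, -0.16 and -0.08 (adjusted p = 0.103, 0.0668, 0.109 and 0.321). VHL also lost its call without BXPC3 collagen replicate 1, and ARNT in 9 of the 12 fits that left out a library.

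That library stood above its partner for the named lower genes. All 12 of the named lower genes were higher in BXPC3 collagen replicate 2 than in replicate 1, by a median of 0.69 and a range of 0.45 to 1.39, while in PANC1 collagen 7 of 12 were higher in replicate 2, with a median of 0.02. Of the HIF target list 20 of 26 members were higher in BXPC3 replicate 2 (median 0.31), against 6043 of 13005 genes tested (median -0.01). Without it 20 of the HIF targets and 13 of the glycolysis genes were concordant lower, against 21 and 14 with it.

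Among other oxygen-using enzymes, some members fell in both lines. Of 17 JmjC histone demethylases and TET enzymes, which need oxygen to remove methyl groups, 4 were lower in both lines and 0 higher (10.1% of all genes were concordant lower), 9 were called in 1 line only and 4 in neither. KDM3A, a demethylase of histone H3, had log2 RPKM of 5.90 and 6.26 in BXPC3 collagen and 4.82 to 5.02 in GelMA, and of 7.40 and 7.47 in PANC1 collagen and 5.40 to 6.0 in GelMA. It fell by 1.17 ± 0.08 and by 1.74 ± 0.08 (adjusted p = 6.85e-06 and 4.96e-08), KDM4B by 0.68 and by 1.37, KDM4C by 0.28 and by 0.71, and KDM5B by 0.35 and by 0.33.

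Among 15 collagen hydroxylases and cross-linking enzymes, 7 fell in both lines, 0 rose and 3 were called in opposite directions. For all genes these shares were 10.1%, 11.3% and 7.74%. P4HA1, the catalytic subunit of collagen prolyl 4-hydroxylase, went from 6.38 and 6.64 in BXPC3 collagen to between 5.08 and 5.18 in GelMA, and from 8.11 and 8.14 in PANC1 collagen to between 5.38 and 6.53. The groups did not overlap, and the effects were -1.41 ± 0.06 and -2.17 ± 0.06. PLOD2, a lysyl hydroxylase, fell by 1.62 and by 0.92, PLOD1 by 0.79 and by 1.00, and LOX, which cross-links collagen, by 0.98 and by 2.06. TGM2, a transglutaminase, was called in opposite directions (0.51 in BXPC3 and -1.18 in PANC1).

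Genes of glycolysis fell in both lines. Of 19 tested genes for glucose uptake, glycolysis and lactate, 14 were lower and 1 higher in both lines, beside 10.1% and 11.3% of all genes. The list medians were -0.45 in BXPC3 and -0.81 in PANC1. ENO2, an enolase (chr12:6913745-6923698), had log2 RPKM of 4.81 and 5.55 in BXPC3 collagen and 3.33 to 3.54 in GelMA, and of 7.31 and 7.34 in PANC1 collagen and 4.51 to 5.76 in GelMA (effects -1.75 ± 0.15 and -2.20 ± 0.15). ALDOC, an aldolase, fell by 1.23 and by 2.76, PGK1, phosphoglycerate kinase, by 1.07 and by 1.58, and LDHA, which makes lactate, by 1.13 and by 0.81. The member that rose, PFKM, a phosphofructokinase, was higher by 0.25 and 0.23, and without BXPC3 collagen replicate 2 the smaller effect was 0.18 (adjusted p = 0.0832).

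Genes that set the fate of pyruvate moved in both directions. PFKFB3 (chr10:6144934-6254644) and PFKFB4 make the activator of phosphofructokinase, and PDK1 switches pyruvate dehydrogenase off. PFKFB3 went from 5.85 and 6.29 to between 4.54 and 4.66 in BXPC3 and from 6.12 and 6.18 to between 3.73 and 4.34 in PANC1, an effect of -1.47 ± 0.10 and -2.13 ± 0.10. PFKFB4 fell by 1.36 and by 2.73, and PDK1 by 1.41 and by 2.30. The other 8 concordant members of this list of 16 were higher, beside 11.3% of all genes. MPC1, a subunit of the mitochondrial pyruvate carrier, had log2 RPKM of 1.80 and 1.81 in BXPC3 collagen and 2.32 to 2.55 in GelMA, with no overlap, but in PANC1 its 5% GelMA libraries (2.82 and 2.80) lay between the collagen libraries (2.88 and 2.60), and the 7.5% libraries (3.41 and 3.55) above both. Its effects were 0.64 ± 0.10 and 0.40 ± 0.10 (adjusted p = 0.000664 and 0.00548), and without PANC1 collagen replicate 2 the smaller one was 0.27 (adjusted p = 0.0824). MPC2, its partner, was higher by 0.32 and 0.43, PDP1, the phosphatase that switches pyruvate dehydrogenase on, by 0.30 and 0.51, and PFKFB2 by 0.29 and 0.59. Subunits of the pyruvate dehydrogenase complex were higher as well: PDHB by 0.12 and 0.47, PDHX by 0.23 and 0.34, DLAT by 0.23 and 0.34 and DLD by 0.17 and 0.18. Without BXPC3 collagen replicate 2, 5 of these 8 were concordant higher, and PFKFB2, PDHB and DLD were not (adjusted p = 0.104, 0.26 and 0.163).

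Of 13 glycogen genes, 8 fell and 1 rose in both lines, where 10.1% of all genes fell, 11.3% rose and 7.74% went opposite ways. PPP1R3C and PPP1R3G, which bring protein phosphatase to glycogen, fell by 0.94 and by 3.0, and by 1.68 and by 2.34. GYS1, muscle glycogen synthase, fell by 0.47 and by 1.30, GBE1, the branching enzyme, by 0.58 and by 0.53, and PGM1, a phosphoglucomutase, by 0.69 and by 0.49. Downstream of pyruvate, 35.3% of tricarboxylic acid cycle genes and 22% of nuclear oxidative phosphorylation genes were concordant, beside 21.4% of all genes. In the tricarboxylic acid cycle 5 of 17 genes were higher, 1 lower and 4 opposite, and without BXPC3 collagen replicate 2 the 5 became 2 (and 3 without BXPC3 GelMA 7.5% replicate 2). OGDH was higher by 0.33 and 0.39 and FH by 0.26 and 0.63, the latter at 0.18 in BXPC3 without collagen replicate 2 (adjusted p = 0.111). Of 41 nuclear genes of oxidative phosphorylation 8 were higher and 1 lower, and the 8 became 5 without BXPC3 collagen replicate 2 and 4 without PANC1 collagen replicate 2. ATP5F1B, a subunit of ATP synthase, was higher by 0.44 and 0.31.

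**Figure D3:**
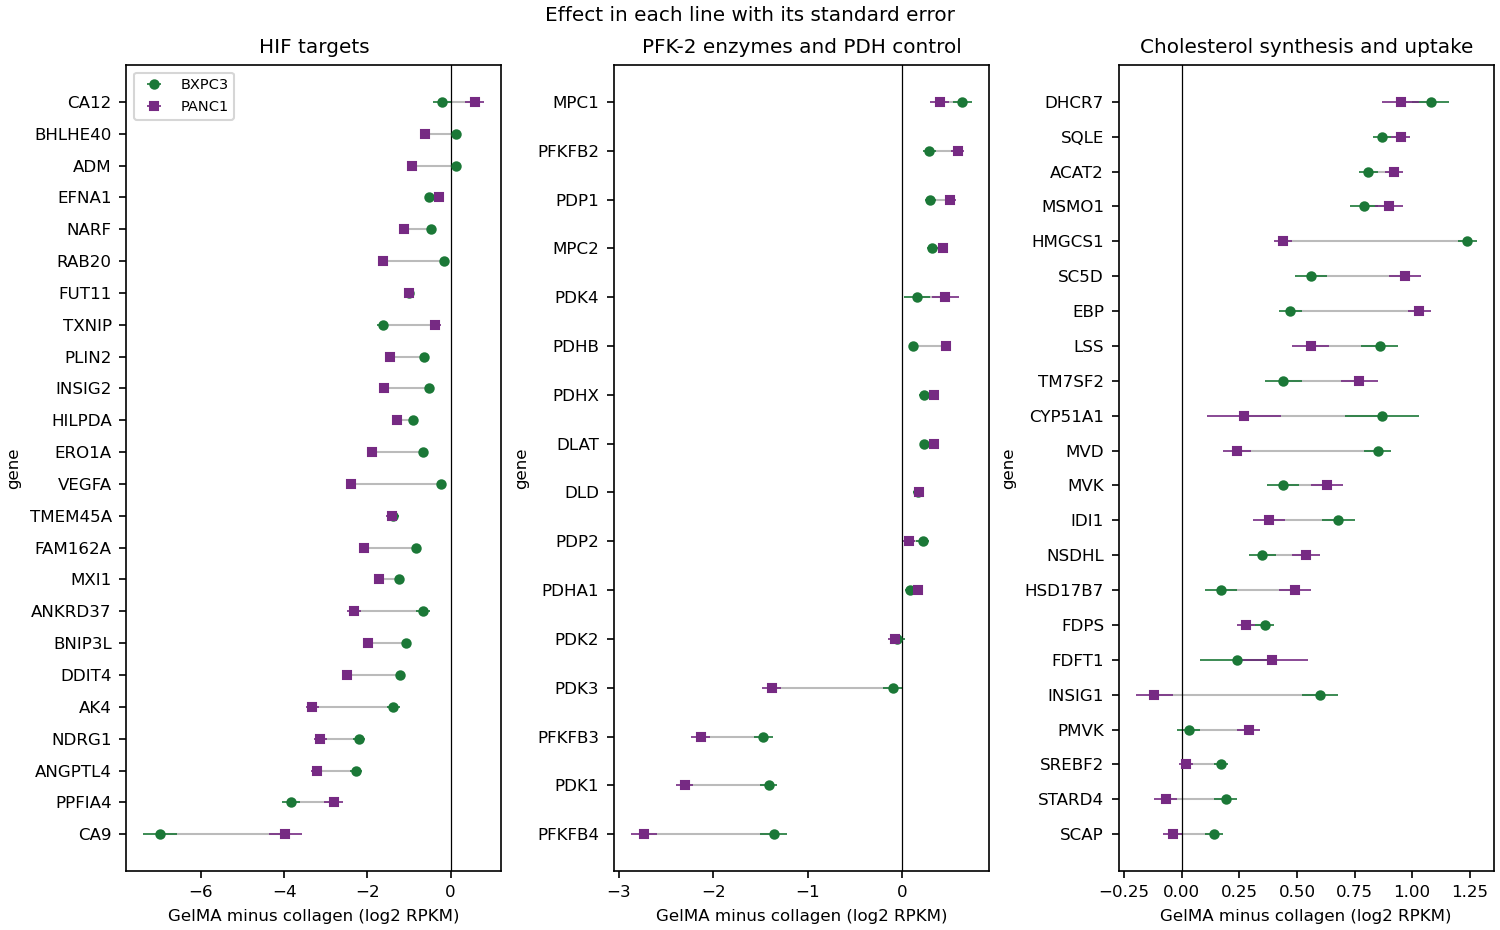
Effect of GelMA against collagen (horizontal axis, log2 RPKM) with its standard error in BXPC3 (green circles) and PANC1 (purple squares) for tested members of 3 lists. Most HIF targets lie left of 0 in both lines and farther left in PANC1, the middle panel has PFKFB3, PFKFB4 and PDK1 left of 0 in both lines and PDK3 in PANC1, and most cholesterol genes lie right of 0 in both lines.

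Among the 41 lists, cholesterol synthesis had the largest share of genes higher in both lines. Of 25 tested genes, 17 were higher in both lines, 0 lower and 0 opposite, beside 11.3% of all genes, with list medians of 0.54 in BXPC3 and 0.44 in PANC1. DHCR7, a reductase late in the pathway (chr11:71428193-71452868), had log2 RPKM of 6.47 and 6.11 in BXPC3 collagen and 7.43, 7.27, 7.39 and 7.37 in GelMA, and of 7.18 and 7.01 in PANC1 collagen and 8.17, 8.15, 7.92 and 7.94 in GelMA. All GelMA libraries were above the collagen libraries of their line. Its effects were 1.08 ± 0.08 and 0.95 ± 0.08 (adjusted p = 1.25e-05 and 4.29e-06), and the difference between the lines was not called (adjusted p = 0.411).

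SQLE, squalene epoxidase, was higher by 0.87 ± 0.04 and 0.95 ± 0.04, ACAT2, which makes acetoacetyl-CoA, by 0.81 and 0.92, and MSMO1, a sterol demethylase, by 0.79 and 0.90. HMGCS1, HMG-CoA synthase, was higher by 1.24 in BXPC3 and by 0.44 in PANC1, with a called line difference (adjusted p = 5.19e-06). INSIG1, a brake on SREBP, was higher in BXPC3 (0.60, adjusted p = 0.000196) and at -0.12 in PANC1 (adjusted p = 0.193). With GelMA limited to 5% the list had 19 concordant higher genes, and with 7.5% it had 13.

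Promoters of this pathway often hold CCAAT, the box bound by NF-Y next to SREBP, and these are shown for MVK, mevalonate kinase (chr12:109573544-109573793, plus), and EBP, a sterol isomerase (chrX:48521558-48521807, plus). Capitals mark CCAAT or its reverse ATTGG in the 250 bases before the start.

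MVK: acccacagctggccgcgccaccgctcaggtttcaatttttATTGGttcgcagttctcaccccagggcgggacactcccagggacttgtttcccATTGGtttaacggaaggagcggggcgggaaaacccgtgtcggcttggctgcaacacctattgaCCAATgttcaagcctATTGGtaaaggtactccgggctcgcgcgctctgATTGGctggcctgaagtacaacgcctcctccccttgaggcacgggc

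EBP: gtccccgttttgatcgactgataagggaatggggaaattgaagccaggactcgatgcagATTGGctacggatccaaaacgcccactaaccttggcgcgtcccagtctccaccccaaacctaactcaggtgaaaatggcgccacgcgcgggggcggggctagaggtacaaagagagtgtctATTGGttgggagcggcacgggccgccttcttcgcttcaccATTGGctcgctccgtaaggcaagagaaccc

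All 8 promoters matched among the 17 concordant cholesterol genes held CCAAT, against 2568 of 7019 promoters of all genes (36.6%) and 350 of 841 of the concordant higher genes (41.6%). The sterol element core CACCCCAC was in 165 of 7019 (2.35%) and in 0 of these 8 windows, which says only that those letters are not there. MVK was higher by 0.44 and 0.63 and EBP by 0.47 and 1.03. Fatty acid synthesis, which SREBP factors also govern, had 0 concordant genes among 15 tested and 6 in opposite directions, with medians of 0.37 in BXPC3 and -0.17 in PANC1.

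By the same rule and level minimum, the 12 concordant higher genes ranked first by their smaller effect came from several functions: CREB5, LIPG, SNPH, GPNMB, ADAMTS14, JCAD, FGFBP1, HTR1D, HSPB8, KIF26B, CCN1 and HDAC9. Each had all GelMA libraries above the collagen libraries in both lines, which follows largely from how they were chosen. CREB5 (chr7:28299321-28825894), a transcription factor that binds cyclic AMP response elements, had log2 RPKM of -0.77 and -0.51 in BXPC3 collagen, 0.20 and 0.79 in 5% GelMA and 1.44 and 1.82 in 7.5% GelMA. In PANC1 it had 3.32 and 3.32, then 4.76 and 4.61, then 5.56 and 5.46. Its 7.5% libraries were the highest in both lines. By limma the step from 5% was called in PANC1 (0.82 ± 0.19, adjusted p = 0.0104) and not in BXPC3 (1.14 ± 0.19, adjusted p = 0.111). The BXPC3 step was nevertheless the larger one, and the difference between the lines in this step was not called (-0.31 ± 0.27, adjusted p = 0.498). GelMA against collagen gave effects of 1.70 ± 0.16 and 1.78 ± 0.16 (adjusted p = 3.64e-05 and 5.49e-06). In BXPC3 collagen CREB5 was below 1 RPKM, so it passed the filter in that line through its GelMA libraries. Such low values stretch a log2 difference. On the log2(RPKM + 1) scale its smaller effect was 0.94, below the 1.39 of LIPG.

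LIPG (chr18:49560699-49599182), a phospholipase known as endothelial lipase, was at 3.48 and 3.29 in BXPC3 collagen and 4.64 to 4.99 in GelMA, and at 5.42 and 5.13 in PANC1 collagen and 7.12 to 7.52 in GelMA. It was higher by 1.47 ± 0.08 and by 2.06 ± 0.08. GPNMB, a lysosomal and cell-surface glycoprotein (chr7:23235967-23275108), was abundant in BXPC3 (6.0 and 5.57 in collagen, 7.04 to 7.27 in GelMA). In PANC1 it rose from near 1 RPKM (-0.13 and 0.00) to 2.21 and 2.05 in 5% GelMA and 3.23 and 3.32 in 7.5% GelMA. Its effect was 1.37 ± 0.10 in BXPC3 and 2.77 ± 0.10 in PANC1, and the difference was called (1.41 ± 0.15, adjusted p = 3.63e-05).

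HDAC9 (chr7:18086949-19002416), a class IIa histone deacetylase, had the most even change of these 12: 6.25 and 6.03 in collagen against 7.11 to 7.24 in GelMA in BXPC3, and 6.65 and 6.44 against 7.50 to 7.68 in PANC1. The effects were 1.05 ± 0.07 and 1.04 ± 0.07, and with line as a covariate 1.05 ± 0.05 (adjusted p = 1.26e-06). CCN1 (chr1:85580761-85583962), a matricellular protein and YAP target, was at 7.19 and 6.94 against 7.93 to 8.35 in BXPC3 and at 9.05 and 9.10 against 10.44 to 10.67 in PANC1. FGFBP1, which releases fibroblast growth factors from the matrix, was higher by 1.21 and 2.28, and HSPB8, a small heat shock protein, by 1.14 and 2.12. In PANC1 collagen both were low, FGFBP1 at -1.37 and -0.98 and HSPB8 at 0.10 and -0.29. HTR1D, a serotonin receptor, was higher by 1.17 and 1.81, JCAD, a junction protein, by 1.58 and 1.26, SNPH, which anchors mitochondria, by 1.51 and 1.41, KIF26B, a kinesin, by 1.10 and 1.72, and ADAMTS14, a procollagen protease, by 1.33 and 1.45.

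In each direction the line difference was called for 7 of the 12 genes. Just below the ranks shown came MT-TE, a mitochondrial tRNA gene (1.14 and 1.03), among the higher genes and ZNF395 (-1.46 and -1.78) among the lower ones.

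**Figure D4:**
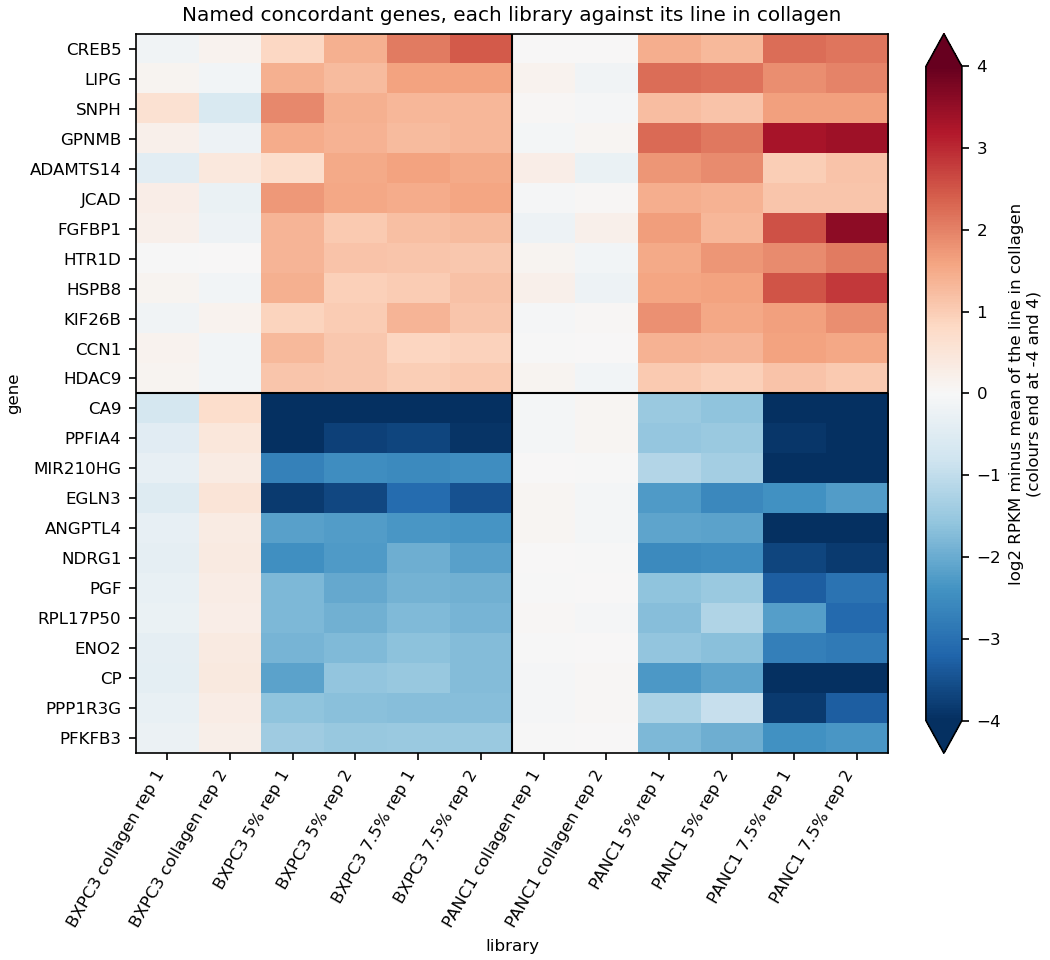
Log2 RPKM of the 24 named concordant genes in each of the 12 libraries, minus the mean of the line in collagen (colour, ending at -4 and 4); rows are genes, columns libraries, the black lines part higher from lower genes and BXPC3 from PANC1. In BXPC3 both GelMA concentrations look alike for the lower genes, in PANC1 the 7.5% columns are darker than the 5% columns for all lower genes but EGLN3, and BXPC3 collagen replicate 2 is above replicate 1 for all 12 lower genes.

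Within PANC1 most of the named lower genes also differed between the GelMA concentrations. They were chosen by effects that include these same 5% and 7.5% libraries. Counts of them therefore describe the chosen genes and are no independent result. A comparison of 7.5% with 5% GelMA within each line, added after the values were seen, called 11 of the 12 named lower genes lower at 7.5% in PANC1 (11.6% of all genes tested were lower there) and 0 in BXPC3. The difference between the lines in this step was called for 9 of the 12 (11.5% of all genes, or 1491, and 704 to 1699 when each library was left out in turn, the lowest without PANC1 GelMA 5% replicate 2). CA9 changed by -4.84 ± 0.47 in PANC1 and by 0.04 ± 0.47 in BXPC3 (line difference adjusted p = 0.00146), MIR210HG by -2.79 ± 0.17 and 0.07 ± 0.17, and CP by -2.91 ± 0.23 and 0.24 ± 0.23. EGLN3 was the exception in PANC1 (0.09 ± 0.26, adjusted p = 0.837). Over all genes the limma test called 2968 in PANC1 (22.8%) and 0 in BXPC3, where 1279 had an unadjusted p under 0.05. Leaving out each library in turn gave 0 to 22 genes in BXPC3 and 1464 to 3213 in PANC1. The counts were 1618 and 1464 without PANC1 GelMA 5% replicates 1 and 2, and 1750 and 1610 without 7.5% replicates 1 and 2. Of the 12 named lower genes, 10 or 11 were called lower at 7.5% in PANC1 in each such fit and 9 or 10 for the line difference. Of the 12 named higher genes, 4 were higher at 7.5% in PANC1 (CREB5, GPNMB, FGFBP1 and HSPB8), LIPG was lower, and in BXPC3 0 were called. For CREB5 the step was upward in BXPC3 too (1.14 ± 0.19), and limma did not call the line difference (adjusted p = 0.498).

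The translation machinery split. Of 59 cytosolic ribosomal protein genes, 28 were lower in both lines, 0 higher and 1 opposite, beside 10.1%, 11.3% and 7.74% of all genes. The medians were -0.12 in BXPC3 and -0.40 in PANC1. RPS24 had log2 RPKM of 8.26 and 8.19 in BXPC3 collagen and 7.69 to 7.81 in GelMA, and of 8.64 and 8.51 in PANC1 collagen and 7.94 to 8.13 in GelMA. It fell by 0.48 ± 0.04 and by 0.54 ± 0.04 (adjusted p = 1.84e-05 and 1.17e-06), RPL31 by 0.49 and by 0.76, RPS27 by 0.45 and by 0.42 and RPL34 by 0.35 and by 0.45. These genes have many near-identical pseudogenes, so small changes in them are uncertain.

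Of 23 ribosome biogenesis factors, 10 were higher in both lines (11.3% of all genes were), 1 was lower and 1 opposite, with a median effect of 0.28 in BXPC3 and 0.07 in PANC1. RRS1, a ribosome assembly factor, was higher by 0.89 and 0.57, RRP9 by 0.56 and 0.33, POLR1A, the large subunit of RNA polymerase I, by 0.34 and 0.51, and NCL, nucleolin, by 0.31 and 0.27. With GelMA limited to 5% there were 5 concordant higher genes.

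Long transcripts of one annotated type fell often. Of 97 tested genes annotated as processed transcripts, 21 (21.6%) were lower in both lines and 1 higher, against 10.2% and 12% of protein-coding genes. Chosen after their values were seen, GAS5, a host of small nucleolar RNAs whose start resembles that of ribosomal protein genes, went from 6.64 and 6.64 to between 6.22 and 6.31 in BXPC3 and from 7.20 and 7.25 to between 5.97 and 6.29 in PANC1. It fell by 0.37 ± 0.03 and by 1.09 ± 0.03, SNHG5 by 0.30 and by 0.85 and SNHG29 by 0.28 and by 0.40. H19, an imprinted RNA, fell by 1.29 ± 0.23 and by 1.55 ± 0.23, with 7.09 and 8.12 in the 2 BXPC3 collagen libraries.

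A minority of proliferation genes were higher in both lines. Of 38 DNA replication and G1/S genes, 15 were higher, 0 lower and 3 opposite, and of 28 G2/M and mitosis genes 9 were higher and 0 lower, beside 11.3% of all genes concordant higher. The G1/S genes had a median effect of 0.23 in BXPC3, where 30 were higher, and of 0.11 in PANC1, where 17 were higher and 4 lower. E2F2, an S-phase transcription factor, had log2 RPKM of 0.91 and 1.11 in BXPC3 collagen and 1.43 to 1.82 in GelMA, and of 0.85 and 0.78 in PANC1 collagen and 1.34 to 1.75 in GelMA (effects 0.61 ± 0.16 and 0.69 ± 0.16; without BXPC3 collagen replicate 1 the smaller was 0.51, adjusted p = 0.0796). MCM2, a subunit of the replicative helicase, was higher by 0.41 and 0.30, FEN1 by 0.34 and 0.40 and ORC6 by 0.31 and 0.35. The replication count was 8 with 5% GelMA alone, and the mitosis count was 15 without BXPC3 GelMA 5% replicate 1. CDKN1A, the p21 inhibitor of the cycle, was higher too, by 0.52 ± 0.06 and 0.63 ± 0.06, as was GDF15, a stress cytokine, by 0.77 and 0.66. Of the p53 target list they belong to, 4 of 18 were higher and 3 lower.

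Heat shock proteins were higher for 7 of 15 tested genes, lower for 0 and opposite for 3. Of all genes 11.3% were concordant higher, 10.1% lower and 7.74% opposite. HSPH1 was higher by 0.33 and 0.55, HSPA4 by 0.29 and 0.20, HSPA8 by 0.27 and 0.25 and HSP90AA1 by 0.26 and 0.22. Of 31 immediate early and MAPK feedback genes, 6 were higher, 3 lower and 6 opposite. DUSP2, a MAPK phosphatase, went from 1.63 and 1.98 to between 2.43 and 2.87 in BXPC3 and from 1.56 and 1.75 to between 3.07 and 3.79 in PANC1 (effects 0.81 ± 0.14 and 1.74 ± 0.14). DUSP10 was higher by 0.61 and 1.39 (0.53 in BXPC3 without collagen replicate 2, adjusted p = 0.0856) and JUND by 0.94 and 0.44.

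Among organelle genes, 6 of 24 of the lysosome and autophagy list were higher, 1 lower and 5 opposite. The shares over all genes were 11.3%, 10.1% and 7.74%. NEU1, a lysosomal sialidase, was higher by 0.40 and 1.65, MCOLN1, a lysosomal calcium channel, by 0.32 and 0.40, and ATP6V1H, a subunit of the proton pump, by 0.32 and 0.39. Of 21 genes of the unfolded protein response 1 was higher, 4 lower and 3 opposite, and the 4 were chaperones and isomerases of the endoplasmic reticulum: HSP90B1 fell by 0.30 and by 0.52, PDIA3 by 0.35 and by 0.40, PDIA4 by 0.35 and by 0.27 and PDIA6 by 0.22 and by 0.43. Of 8 Wnt targets and feedback genes 3 were higher: ZNRF3, which removes Wnt receptors, by 0.51 and 0.50, DKK1, a secreted Wnt inhibitor, by 0.41 and 1.13, and CCND1, cyclin D1, by 0.32 and 0.30. Of 10 replication-dependent histone genes 3 were higher, but most transcripts of that class lack a poly-A tail, and these libraries were made by poly-A capture.

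The matrix and its sensors gave no single direction. Of all genes tested, 11.3% were higher in both lines, 10.1% lower and 7.74% opposite. The YAP/TAZ list was 23.8% concordant, near the 21.4% of all genes, and the actin list 16.7%. Of 21 YAP/TAZ targets, 3 were higher (CCN1, ANKRD1 and FJX1), 2 lower (AXL and NT5E) and 4 opposite, and FJX1 changed almost equally (0.72 ± 0.09 and 0.74 ± 0.09). ANKRD1 was called in PANC1 although its 5% GelMA libraries (-0.51 and -0.79) lay between the collagen libraries (-0.28 and -1.21), and without PANC1 collagen replicate 2 the effect there was 0.58 (adjusted p = 0.0787). Of 24 actin and SRF targets, 4 were higher and 6 opposite, and the 4 became 2 without BXPC3 collagen replicate 2. Of 16 integrins and collagen receptors, 2 were lower (ITGA3 and ITGB4), a share of 12.5% near the 10.1% of all genes, and that count was 4 without BXPC3 GelMA 5% replicate 1.

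Of 20 matrix proteases and inhibitors, 2 were higher, 4 lower and 4 opposite, beside 11.3%, 10.1% and 7.74% of all genes. MMP9, a gelatinase, fell by 1.38 ± 0.37 and by 2.51 ± 0.37, from 1.56 and 1.15 to between -0.49 and 0.96 in BXPC3 and from 2.11 and 2.08 to between -0.80 and 0.02 in PANC1; without BXPC3 collagen replicate 1 the BXPC3 effect was -1.18 (adjusted p = 0.0919). MMP14, the membrane-bound collagenase, fell by 0.44 and by 1.17. MMP7, matrilysin, was higher by 1.45 ± 0.22 and 1.18 ± 0.22, although it stayed near 1 RPKM in PANC1 (-1.43 and -1.03 in collagen, -0.31 to 0.18 in GelMA). Of 22 collagens, laminins and matrix glycoproteins, 4 were higher, 5 lower and 3 opposite, and the 5 became 3 without BXPC3 collagen replicate 1, BXPC3 collagen replicate 2 or PANC1 collagen replicate 2. NID2, a basement membrane protein, was higher by 1.03 and 1.15, also from a low PANC1 level (-1.54 and -1.36).

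Epithelial junctions and keratins had 4 of 26 genes higher, a share of 15.4% near the 11.3% of all genes, 0 lower and 1 opposite, and the 4 became 2 without BXPC3 collagen replicate 1. Of these, KRT8, a keratin of simple epithelium, was higher by 0.49 in each line and KRT18, its partner, by 0.26 and 0.40. Of 8 mesenchymal genes 2 were lower, ZEB1 by 0.31 and by 0.54 and AXL by 0.34 and by 0.43, and without BXPC3 collagen replicate 2 only 1 was. Of these 8 mesenchymal genes 0 were higher in both lines, 1 was opposite and 5 were called in neither line. Among all genes 10.1% were concordant lower. Markers of other cell types were followed by their summed RPKM. The 4 of 8 fibroblast and stellate markers used here (ACTA2, COL1A1, COL3A1 and PDGFRA) summed to 21.3 to 25 in BXPC3. In PANC1 they summed to 142 to 148 in collagen, 223 to 228 in 5% GelMA and 364 to 426 in 7.5% GelMA. The 3 of 5 immune markers (CD14, CD3E and LYZ), of which 1 was tested and not called, summed to 15.6 to 17.3 in BXPC3 collagen and 17.2 to 23.4 in 5% GelMA, and to 5.59 to 8.69 in PANC1 collagen and 5% GelMA. No endothelial, acinar or endocrine marker reached 1 RPKM in 2 libraries of each line, so none was tested. PRSS1, trypsinogen, the 1 of 5 acinar and endocrine markers used, was at 2.33 to 3.29 RPKM in BXPC3 collagen, 8.3 to 9.79 in 5% GelMA and 7.28 to 8.67 in 7.5% GelMA, with no overlap, and at 0.357 or less in PANC1. The 3 of 4 endothelial markers (KDR, PECAM1 and VWF) summed to 2.56 to 4.12 in BXPC3, and in PANC1 to 0.228 to 0.339 in collagen, 0.387 to 0.703 in 5% GelMA and 1.11 to 1.42 in 7.5% GelMA. The part of these markers in the shared changes was not tested.

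**Figure D5:**
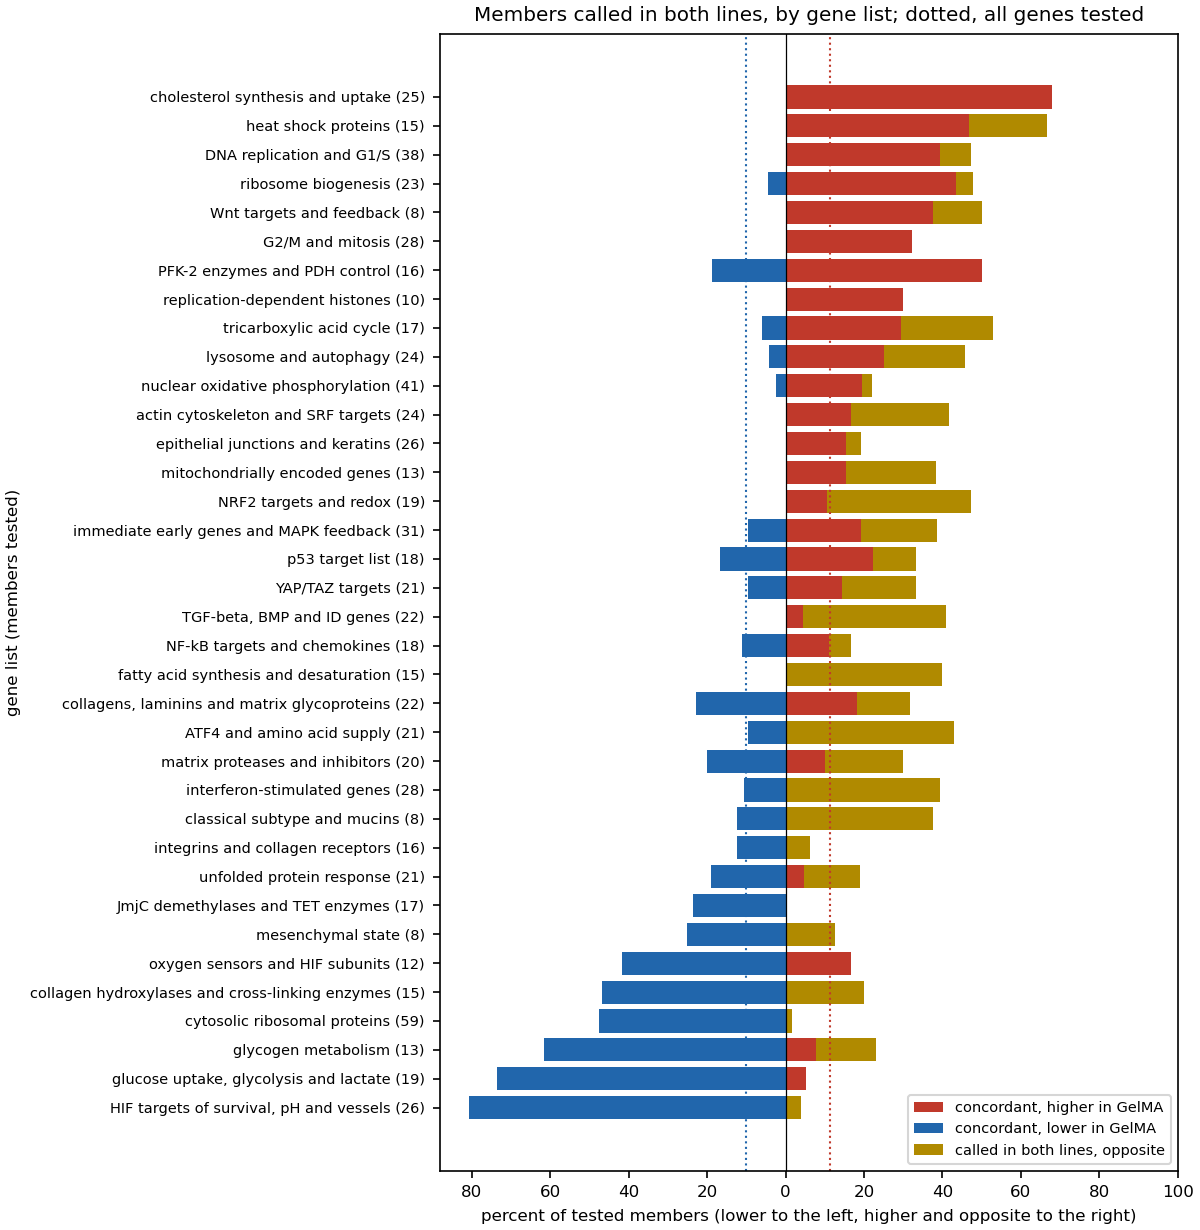
Percent of the tested members of each gene list (number tested in brackets) that were called in both lines: lower to the left in blue, higher to the right in red, and opposite in ochre stacked on red; dotted lines are the 11.3% and 10.1% of all genes tested. Cholesterol synthesis stands at the top with 17 of 25 higher, and the HIF targets (21 of 26), glycolysis (14 of 19) and glycogen genes (8 of 13) stand at the bottom.

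Several other gene groups changed in opposite directions in the 2 lines. Of 28 interferon-stimulated genes 11 were called in opposite directions and 3 were lower in both lines, a count that was 0 with 5% GelMA alone and 6 with 7.5% alone. Of 21 ATF4 and amino acid genes 9 were opposite, of 22 TGF-beta, BMP and ID genes 8, and of 19 NRF2 targets 7, against 7.74% of all genes. PGD of the NRF2 list, which makes NADPH in the pentose phosphate pathway, was called in the same direction in both lines, higher by 0.56 and 0.55. Of the ATF4 list VLDLR, a lipoprotein receptor, fell by 1.21 and by 1.84 and PSPH, of serine synthesis, by 0.17 and by 0.27; without BXPC3 collagen replicate 1 that count of 2 was 1.

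The genes with the largest opposite changes show how far the lines diverged. MYL9, a myosin light chain, rose from 0.94 and 0.71 to between 1.99 and 2.48 in BXPC3 and fell from 5.16 and 5.18 to between 3.35 and 4.48 in PANC1. TFF3, a trefoil factor of mucous epithelium, fell from 3.93 and 4.63 to between 1.71 and 1.84 in BXPC3 and rose from 2.24 and 1.91 to between 2.76 and 3.38 in PANC1. With line as a covariate their effects were 0.08 ± 0.42 (adjusted p = 0.886) and -0.68 ± 0.55 (adjusted p = 0.335). LINC00173 (1.02 and -1.02) and the chemokine CXCL2 (1.00 and -1.05) followed MYL9. The gap junction gene GJA1 (-0.96 and 1.03) and IGFBP2 (-1.42 and 0.96), which binds insulin-like growth factors, followed TFF3. For CXCL2 the opposite direction held at 7.5% GelMA only. Its PANC1 libraries in 5% GelMA (3.18 and 3.01) lay above collagen (2.85 and 2.64), as in BXPC3, and those in 7.5% (0.42 and 0.19) below.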

How the data were processed

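Messenger RNA was measured in 12 libraries. Per the labels' protocols, an RNeasy kit gave the RNA, and poly-A capture preceded library preparation. HISAT2 2.1.0 and HTSeq were used with GRCh38, per the submitters' processing notes. The annotation, strand setting and log offset were not given in the sources used here. For 16299 genes the authors deposited log2 RPKM. Once sorted, the values of the libraries matched within 0.05 above the lowest 2541 ranks, so the table is quantile normalised: a change is relative to the other genes, and a shift of all genes together cannot be seen. Of the columns, 0 were left unmapped.

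Symbols came from a table of gene names (16250) and GENCODE 29 (49). limma 3.58.1 in R 4.3.3 was fitted with a mean-variance trend to 13005 genes, after tests on simulated data. One fit had line and matrix. The other had 6 group means and gave the effect in each line (mean of both GelMA concentrations minus collagen), their difference and the concentration step. Effects are log2 differences with a standard error, with Benjamini-Hochberg adjustment across all genes tested. The fits pool the spread of all groups. Named genes were the 12 concordant genes in each direction with the largest smaller effect and a group mean of at least 3 RPKM in each line, 3 opposite genes each way, and up to 4 genes of each of the 41 lists, plus genes a statement turned on. Of 913 list entries 767 were tested. Members and lists were chosen with earlier results of these data known. Alternatives were a pseudocount, filters, centring, a replicate block, single concentrations, other fits, a stricter threshold and leaving out each library. Some list members are counted but not reported by name here.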

Additional observations from a re-analysis of the deposited data

Results flagged for a closer look

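For 20 named genes the effect of GelMA differed between the lines by limma's test of the difference itself (PANC1 effect minus BXPC3 effect, log2, adjusted p under 0.05). Among genes higher in both lines it was 0.59 for LIPG, 1.41 for GPNMB, 1.07 for FGFBP1 and 0.64 for HTR1D. For HSPB8 it was 0.98, for KIF26B 0.62 and for CCN1 0.43, so on the log2 RPKM scale all 7 rose more in PANC1. FGFBP1 was below 1 RPKM in PANC1 collagen (-1.37 and -0.98), which stretches its difference. On the log2(RPKM + 1) scale its smaller effect was 1.18, beside 1.19 with line as a covariate, so there the lines were nearly equal. For HSPB8 these values were 1.04 and 1.22. Among genes lower in both lines it was 3.01 for CA9, 1.02 for PPFIA4 and 1.13 for EGLN3, which on the log2 RPKM scale fell more in BXPC3. It was -0.94 for ANGPTL4, -0.93 for NDRG1, -1.91 for CP and -0.65 for PFKFB3, which fell more in PANC1. CA9 and PPFIA4 were below 1 RPKM in every BXPC3 GelMA library, which stretches their falls there. On the log2(RPKM + 1) scale the smaller effect of PPFIA4 lay close to its effect with line as a covariate. The lines were thus closer for PPFIA4 on that scale, whereas for CA9 these values stayed apart. Among genes with opposite changes the difference was -2.59 for MYL9, -2.04 for LINC00173, -2.05 for CXCL2, 3.63 for TFF3, 1.99 for GJA1 and 2.37 for IGFBP2.

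In 2 named genes 1 of the 4 GelMA libraries of a line lay far from the others by Dixon's test. ADAMTS14 was at a log2 RPKM of 1.64 in BXPC3 5% GelMA replicate 1, below 2.43 to 2.53 in the other 3 libraries. TFF3 was at 2.76 in PANC1 5% GelMA replicate 1, below 3.34 to 3.38 in the others. Chance alone gives such a result in about 1 in 20 groups.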

How the results depend on the processing

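The 24 named concordant genes kept direction and call in both lines under all alternatives in which they were tested (543 of 543 values), and leaving out each library in turn was among them. With a pseudocount (log2(RPKM + 1)) 9 genes were higher and 31 lower by at least 2-fold in both lines, with no filter 49 and 82, with 1 RPKM in 2 of 12 libraries 78 were lower, and with 1 RPKM in all 12 libraries 15 were higher. With 5% GelMA alone 880 genes were concordant higher, 855 lower and 648 opposite, and 1736 were higher with line as a covariate. From the 6 group means 4171 were higher and 3753 lower in both lines together. An adjusted p under 0.01 left 1553 and 1394 with line as a covariate, 1934 and 1580 in BXPC3, 875 concordant higher, 780 lower and 527 opposite, and 630 for 7.5% against 5% GelMA averaged over the lines. Leaving out each library gave 1946 to 3116 higher and 1641 to 2586 lower genes in BXPC3, the lowest without BXPC3 collagen replicate 2, and 829 to 1756 genes for 7.5% against 5% GelMA averaged over the lines (1566 with all libraries). Concordant counts ranged over 1016 to 1399 higher and 910 to 1233 lower. KRT7, higher in both lines by at least 0.17, reversed to -0.01 with 7.5% GelMA alone (adjusted p = 0.91). Of the list members named, 190 of 3192 values lost the call in a line. The cause of these shifts was not tested.

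Replicate numbers did not pair the libraries (correlations of replicate differences -0.09 to 0.13). With a replicate block 1426 genes were concordant higher, 1270 lower and 961 opposite, and 2552 were higher and 2255 lower with line as a covariate. Counts of reads were not used, so low genes have an unknown counting error, and 2 libraries a group limit the precision.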
